A study of Drosophila melanogaster with 2 samples.

Results

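Chromosome 4 of Drosophila melanogaster carried 1592 of the 30000 peaks (5.31%) in the pooled peak list of a chromatin immunoprecipitation and sequencing (ChIP-seq) experiment on the CG30020 protein. Of these 1592 peaks, 195 also belonged to the 5048 peaks that the authors kept after an irreproducible discovery rate (IDR) threshold. Such a threshold is based on how alike peaks rank in replicates. Membership was decided by position alone: every pooled peak on chromosome 4 was taken, and those in the IDR list were marked as the strong subset. The embryos came from a transgenic line that stably expresses CG30020 with green fluorescent protein (eGFP) joined to its C terminus. Chromatin was precipitated with an antibody against GFP from whole embryos of both sexes aged 0 to 24 h, with fragments of 200 to 800 bp, so each value averages over all cell types and stages in the collection. There was 1 group, CG30020-eGFP embryos, with 2 biological replicates (numbered 2 and 3). No comparison between conditions exists, and the error of each value is shown by the same value in each replicate's own list.

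Chromosome 4 is the smallest fly autosome. Much of it is packaged with heterochromatin protein HP1a and interspersed with transposable elements, yet its genes are transcribed in many tissues. It is also known for a chromosome-specific protein, Pof, which spreads over gene bodies along this chromosome. The assay asks where along the DNA the tagged protein sits, and CG30020 was profiled as a transcription factor.

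Signal was deposited on a scale that is not stated. Each peak is therefore given as a multiple of the median peak in the same 30000-peak list, the pooled one unless a replicate is named. A promoter summit is a peak's highest point lying within 500 bp of an annotated transcription start site (TSS). Values were set beside those of the 5 large chromosome arms together and of the repeat-rich bins within those arms, 262 of 1328 bins of 100 kb in which at least 20% of bases are annotated transposable element or at least 25% are soft-masked repeat. Sequencing depth cannot be read from peak lists.

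The DNA under some of the strongest summits of chromosome 4 is printed here. The windows below are 101 bases of the reference genome (dm6), centred on the summit and written on the strand of the nearest gene, 5′ to 3′. Capitals mark CGATA (the core bound by the insulator protein BEAF-32) on either strand, TATCGATA (the DNA replication-related element, which contains CGATA), and GGTCACAC (the core of the element bound by M1BP). The repeat GAGAGAGA would also have been marked and was in none of them. The first 3 are among the strongest promoter summits of the chromosome, and they hold none of these motifs.
anne, chr4:132080-132180, plus strand: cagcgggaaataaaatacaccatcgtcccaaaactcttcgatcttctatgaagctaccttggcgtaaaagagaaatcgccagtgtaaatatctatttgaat
4E-T, chr4:958399-958499, minus strand: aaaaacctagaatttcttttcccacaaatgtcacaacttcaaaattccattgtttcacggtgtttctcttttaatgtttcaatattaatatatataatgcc
Eph, chr4:610563-610663, plus strand: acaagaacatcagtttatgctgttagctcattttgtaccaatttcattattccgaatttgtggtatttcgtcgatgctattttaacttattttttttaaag
The next 5 are promoter windows among the 20 strongest that do hold a marked motif.
PIP4K, chr4:1196852-1196952, minus strand: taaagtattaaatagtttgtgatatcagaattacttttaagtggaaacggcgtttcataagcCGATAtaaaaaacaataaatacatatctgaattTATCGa
RpS3A, chr4:67291-67391, minus strand: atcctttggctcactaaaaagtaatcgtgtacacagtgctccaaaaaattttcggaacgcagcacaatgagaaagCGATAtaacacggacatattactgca
CG31998, chr4:205970-206070, minus strand: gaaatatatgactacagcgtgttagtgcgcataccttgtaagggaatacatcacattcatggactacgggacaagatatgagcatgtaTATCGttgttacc
PlexB, chr4:43779-43879, minus strand: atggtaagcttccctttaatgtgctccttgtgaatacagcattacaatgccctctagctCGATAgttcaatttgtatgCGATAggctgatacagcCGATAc
Dyrk3, chr4:1230699-1230799, minus strand: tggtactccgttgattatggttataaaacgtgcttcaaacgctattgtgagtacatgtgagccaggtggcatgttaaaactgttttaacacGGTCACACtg
The last pair are the 2 strongest summits outside promoters. The first lies 2126 bp from the TSS of snoRNA:CD-24 and the second has an offset of -746 bp from ey, upstream of its TSS, and both are intergenic.
snoRNA:CD-24, chr4:63469-63569, minus strand: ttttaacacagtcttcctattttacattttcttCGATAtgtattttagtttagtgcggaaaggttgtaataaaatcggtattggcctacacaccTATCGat
upstream of ey, chr4:696893-696993, plus strand: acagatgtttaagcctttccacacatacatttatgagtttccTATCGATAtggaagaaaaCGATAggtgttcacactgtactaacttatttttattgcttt

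Of the 20 strongest promoter windows, 7 held CGATA on either strand, 1 held TATCGATA, 1 held GGTCACAC and 12 held none of the marked motifs. Over all 107 IDR promoter summits of chromosome 4, CGATA was in 25.2% of windows and in 17.3% of windows of the same width 300 bp away. On the large arms the corresponding shares were 30.9% and 14.2%. Of 23581 windows of this length just upstream of all annotated TSSs 21.5% hold it, and of the 183 on chromosome 4 21.9% do. TATCGATA occurred in 4.67% of IDR promoter windows on chromosome 4 and 7.17% on the large arms, against 2.94% of all promoters. Among the 88 IDR summits of chromosome 4 outside promoters it was in 9 windows (10.2%), against 0.568% of their flanks and 2.07% of IDR windows outside promoters on the arms. GGTCACAC was found in 1 of 107 IDR promoter windows on chromosome 4 (0.935%) and in 3.92% on the arms. These counts describe letters in a window and not binding sites.

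Base composition at the summits was close to that on the large arms, and the contrast with their flanks differed. Windows at IDR promoter summits of chromosome 4 had 33.6% GC, close to the 34.1% of those on the arms. The flanks differed, with 31.6% GC on chromosome 4 and 42.5% on the arms. A summit window on chromosome 4 was therefore 2.01 percentage points richer in GC than its flank, whereas on the arms it was 8.41 points poorer. TATAAA differed in the same direction, being in 15.9% of IDR promoter windows and 29.0% of their flanks on chromosome 4, against 23.1% and 12.4% on the arms.

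Peaks lay along nearly the whole chromosome. Chromosome 4 held 1181 pooled peaks per Mb against 214 on the large arms, a ratio of 5.52, and the replicates' own lists gave 5.57 (replicate 2, 1605 peaks) and 5.41 (replicate 3, 1563 peaks). The repeat-rich bins of the arms held 340 per Mb, so chromosome 4 exceeded them by a factor of 3.47 (3.37 in replicate 2 and 4.13 in replicate 3). Peak intervals covered 54.4% of its 1348131 bp (53.0% and 52.4% in the replicates), against 9.16% of the arms and 15.5% of the repeat-rich bins. The median distance between neighbouring summits was 694 bp on chromosome 4 and 1056.5 bp on the arms. Of its 14 bins, the first 12 held between 93 and 141 peaks each. The next bin, with the 17000 unknown bases of the assembly, held 81, and the last 48.1 kb, of which 95.4% is transposable element, held 5.

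The chromosome also differed from the arms in sequence content. Annotated transposable elements made up 24.8% of chromosome 4 and 5.74% of the arms, soft-masked sequence 27.8% and 20.03%, and GC 35.2% and 42.2%. Their part in the peak density was not tested. Transposable elements held fewer peaks than their share of bases, 16.5% of pooled summits on 24.8% of the chromosome. Peaks covered 35.1% of transposable element bases (37.1% and 32.8% in replicates 2 and 3) and 60.8% of the rest (58.3% and 58.8%).

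Most of these peaks were weak and a minority were very strong. Of the 1592 peaks 12.2% were in the IDR set, where 16.8% of all pooled peaks were. The IDR list held exactly the 5048 highest-ranking peaks of the pooled list, so on chromosome 4 the set was bounded by signal. The weakest members inside it were in a ci intron at 3.97 times, at Zyx at 3.96, with no matching summit in either replicate, and in the Zip102B 3′ UTR at 3.85. Just outside were summits near lncRNA:CR44441 at 3.79, in the pho coding sequence at 3.79 and in the CG11360 3′ UTR at 3.78. The 195 IDR peaks held 84.8% of the summed signal of chromosome 4 (74.4% on the arms), and the 10 strongest held 26.5%. Of the 100 strongest pooled peaks of the genome 22 were on chromosome 4.

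The strongest peaks of all were centred close to the start sites of genes, and the IDR set as a whole was divided. Promoters held 107 of the 195 IDR summits (54.9%), where all IDR summits had 72.3% there, and the other 88 lay elsewhere. All 20 strongest were promoter summits, with offsets from 248 bp upstream to 28 bp downstream of the TSS, and 18 were upstream. At anne, the strongest of the chromosome, the summit at 132130 lay 90 bp upstream of the TSS and reached 457 times the median, 478 in replicate 2 and 312 in replicate 3. Over the IDR promoter summits the median offset was -54 bp and 66.4% (71 of 107) were upstream, against -80 bp and 81.1% on the arms. The bin from 100 bp upstream to the TSS held similar shares, 37.4% and 39.2%. That from 200 to 100 bp upstream held 9.35% on chromosome 4 and 26.8% on the arms. IDR promoter summits had a median of 30.1 times the median peak on chromosome 4 and 7.48 on the arms, while other IDR summits had 8.02 and 6.12.

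**Figure D1:**
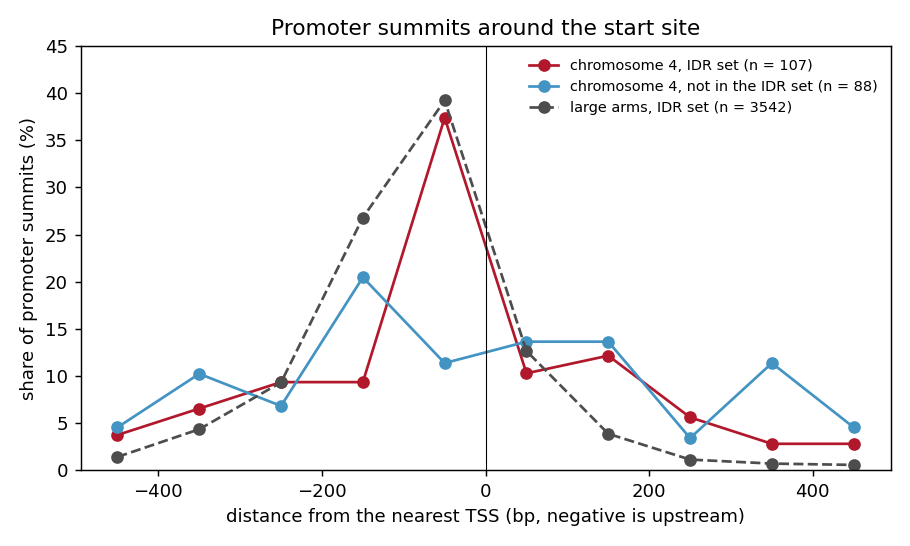
Share of promoter summits (%) by distance from the nearest TSS in bp, in steps of 100 bp, for chromosome 4 peaks in the IDR set (n = 107), chromosome 4 peaks outside it (n = 88) and IDR peaks of the large arms (n = 3542). Both IDR sets peak in the last 100 bp before the TSS, at 37.4% and 39.2%, and the peaks outside the IDR set have no such maximum there (11.4%).

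Nearly every protein-coding gene of chromosome 4 had a promoter summit. Of 80 such genes 78 (97.5%) did in the pooled list, where 46.3% of all protein-coding genes on the large arms and chromosome 4 did. The replicates' own lists gave 77 and 79. This count has to be read against the density of peaks, since 73.7% of all bases of chromosome 4 lay within 500 bp of a pooled summit (15.6% on the arms). The IDR set separates promoters more: 62 genes (77.5%) had an IDR summit, against 30.7% of all genes, while 11.3% of bases of the chromosome lay within 500 bp of one (3.23% on the arms). Divergent genes, which have a TSS of another protein-coding gene on the opposite strand within 500 bp upstream, had an IDR summit in 14 of 14 cases, and the others in 48 of 66 (72.7%). On the arms these shares were 64.2% and 17.7%. The 2 genes without a pooled promoter summit were Taf3, which encodes a subunit of the general factor TFIID, and Gat, a GABA transporter, with the nearest summits 590 and 521 bp from a TSS.

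Genes for translation and RNA regulation had the highest promoter peaks of the 5 gene groups listed. All 5 members had an IDR summit, as did 77.5% of all genes of the chromosome, with a median of 235 times the median peak (251 in replicate 2 and 158 in replicate 3), against 69.97 over all protein-coding genes of the chromosome. The eIF4E-binding translational repressor 4E-T stood at 343 (362 and 235 in replicates 2 and 3). Gyf, another translational regulator, stood at 307 (312 and 213). Replicate 2 was higher than replicate 3 at both. RpS3A, a protein of the small ribosomal subunit, stood at 235 (251 and 157), and gw, the GW182 protein of microRNA silencing, at 220 (216 and 158). The lowest member, the translation initiation factor eIF4G1, was at 132 (127 and 95.7).

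Genes of metabolism and trafficking had IDR summits in 10 of 11 cases, where 77.5% of all genes of the chromosome had one, with a median of 131 (130 and 96.1 in the replicates). Rad23, a carrier of ubiquitinated proteins that also acts in DNA repair, was at 246 (239 and 177). The lipoprotein gene apolpp shared its summit with Zyx, a gene for a focal adhesion protein, at 225 (225 and 158). Both starts lie within 100 bp of that summit, so its signal cannot be assigned to either gene alone. ND-49, a subunit of respiratory complex I, stood at 147 (162 and 96.1). JYalpha, a sodium pump subunit near the end of the assembled chromosome, had a promoter summit of 1.09 (0.891 and 1.45), while 2 IDR summits lay further inside the gene, the stronger at 18.1 (15.6 and 13.8).

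Signalling genes had IDR summits in 12 of 13 cases, beside 77.5% of all genes of the chromosome, and a median of 120 (129 and 79.8 in the replicates). The ephrin receptor Eph was at 318 (307 and 230). The semaphorin receptors PlexA and PlexB were at 317 (320 and 224) and 211 (234 and 136). Ephrin, the ligand of Eph, was at 53.3 (29.3 and 57.2), and its replicates were ordered the other way from those of Eph. The matching summit of replicate 2 had an offset of -175 bp and that of replicate 3 of 22 bp, so these values may not describe the same peak. The TGF-beta family ligands myo, mav and Actbeta were at 22.8, 10.98 and 10.4. Of intracellular components, the lipid kinase PIP4K was at 248 (237 and 180) and the adaptor Crk at 203 (214 and 140). RhoGAP102A, the member without an IDR summit, was at 2.45.

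Neuronal and muscle genes had IDR summits in 9 of 11 cases, near the 77.5% of the whole chromosome, with a median of 79.96 over the 10 with any promoter summit (68.1 and 71.3 in the replicates). Zyx led. Slip1 followed at 182, at a summit shared with CG46466 and nearer to the latter's TSS. Cadps, a regulator of dense-core vesicle release, was at 178, at a summit shared with Dyrk3 of the signalling group. The synaptic vesicle priming gene unc-13 was at 127 (117 and 94.2) and the glutamate receptor mGluR at 111 (102 and 84.1). Muscle and adhesion genes lay at both ends of the group, since bt, which encodes the giant muscle protein projectin, was at 2.23 (2.22 and 2.01).

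Transcription factor genes formed a graded series of promoter signal, from 253 down to 0.972. All 17 had a pooled promoter summit, where 97.5% of all genes of the chromosome had one. An IDR summit was present in 10 of 17, where 77.5% of all genes of the chromosome had one. The median of these 17 genes, 5.38 (5.60 and 4.70 in the replicates), was the lowest of the 5 groups. The high end held the Polycomb-group DNA-binding protein pho at 253 (269 and 170), the host cell factor Hcf at 179 (193 and 118), the Mediator subunit MED26 at 114 (131 and 74.3) and the Wnt coactivator lgs at 91.6 (81.5 and 72.2). Below them came Mitf at 32.9 (26.5 and 27.5) and onecut at 22.7 (17.4 and 19.0). Then came ci, the Hedgehog effector, at 12.5 (11.3 and 9.90) and pan, the TCF factor of Wnt signalling, at 10.01 (9.16 and 7.66). The pan value belongs to a TSS inside the gene. Upstream of the start of pan, IDR summits at 32.7 and 10.7 had offsets of -772 and -570 bp, outside the promoter window. The place of pan thus also depends on the width of the promoter window. Pur-alpha, at a summit shared with Tdg, and NfI were at 5.38 (5.60 and 4.33) and 4.96 (3.90 and 4.70). The 7 genes without an IDR promoter summit were Sox102F, toy, zfh2, sv, fuss, dati and ey. Sox102F was at 3.56 (2.83 and 3.02). The Pax6 genes toy and ey were at 3.49 (2.73 and 3.01) and 0.972 (0.740 and 1.08). The ey value belongs to a TSS inside the gene. Upstream of the start of ey, an IDR summit at 13.8 had an offset of -507 bp, just outside the promoter window. The low place of ey in this series thus depends on the width of that window. The zinc finger homeodomain gene zfh2 was at 2.85, with 1.04 in replicate 2 and 3.46 in replicate 3. The matching summit of replicate 2 lay 217 bp away and that of replicate 3 lay 14 bp away, so these values may not describe the same peak. The Pax2 homologue sv was at 2.61 (1.26 and 2.74), fuss at 2.47 (1.42 and 2.83) and dati at 1.97 (2.32 and 1.25). The lists were drawn up with earlier results of these data known, so the order of the groups is a description only.

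**Figure D2:**
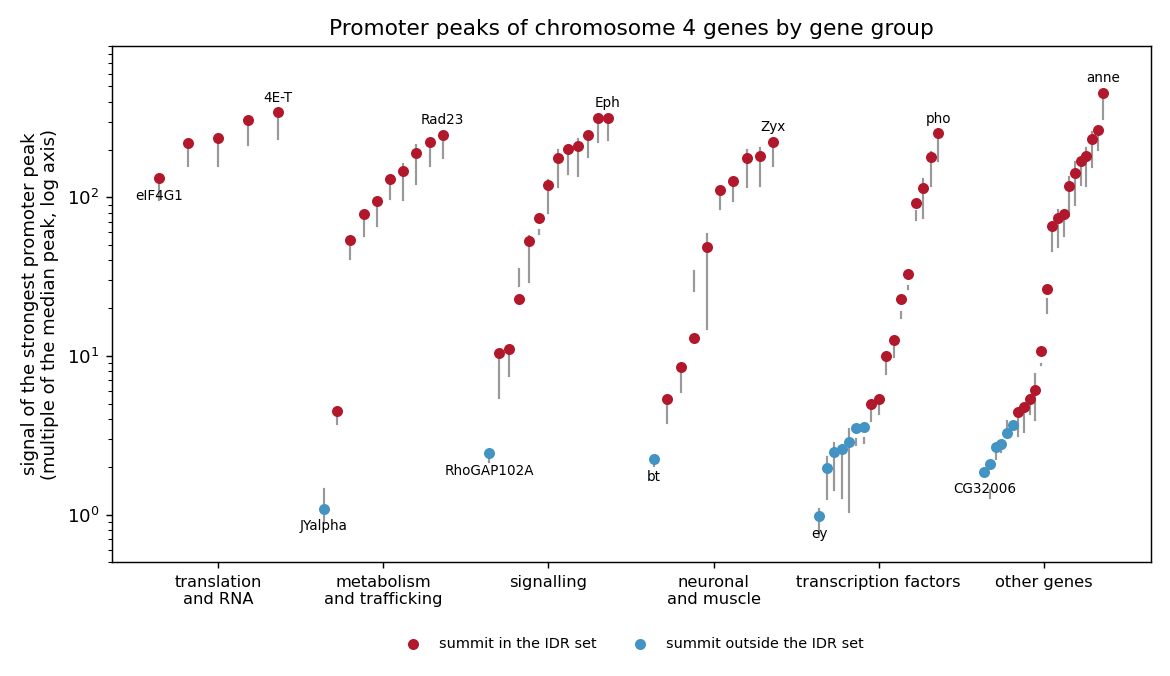
Signal of the strongest promoter peak of the chromosome 4 protein-coding genes reported here (multiple of the median pooled peak, log axis), by gene group; each point is 1 gene in the pooled list, grey lines join its values in replicates 2 and 3 (each a multiple of that replicate's own median), and colour shows whether the summit is in the IDR set. Translation and RNA genes lie between 132 and 343, while transcription factor genes span 0.972 to 253.

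Across all 80 genes, 33 had a promoter peak of at least 100 times the median, 14 had one below 3.5 and 2 had none. The 18 genes without an IDR promoter summit were longer than the rest, with a median length of 15661.5 bp against 9301.5 bp. Their 16 promoter summits had multiples from 0.972 to 3.67. Their bodies were covered by peaks over a median of 54.6% of their length, from 40.2% to 65.3%. Genes with an IDR summit had a median of 65.0%. Pooled peaks covered 54.4% of all bases of the chromosome, so the 54.6% is near the share of the chromosome as a whole.

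Gene bodies were covered far more than on the large arms or in their repeat-rich bins. The median protein-coding gene of chromosome 4 had 62.8% of its length inside pooled peaks (61.4% and 58.1% in the replicates), and the median of the large arms was 0 (1.58% and 0 in the replicates). Among genes of 5 to 20 kb alone the medians were 62.6% on chromosome 4 (n = 49; 61.0% and 58.0% in replicates 2 and 3) and 3.12% on the arms (n = 2422; 6.23% and 4.43%). The median in repeat-rich bins was 0.0605% (1.45% and 0.339%). The lowest value was 21.6% in Mitf, whose span holds the 17000 unknown bases. The 52075-bp gene bt contained 69 pooled summits (71 in each replicate), of which 2 were in the IDR set, and was covered over 57.1% of its length (57.0% and 56.1%). The 39065-bp gene zfh2 contained 62 (41 and 56), none of them in the IDR set, and was covered over 63.5% (45.2% and 57.3%).

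Coding exons held a larger share of the peaks than on the arms. On chromosome 4, 22.1% of pooled summits lay in coding exons (23.0% in replicate 2 and 22.1% in replicate 3), which make up 18.8% of its bases. On the arms 3.92% did (6.03% and 3.34%), on 13.7% of the bases. Repeat-rich bins gave 4.16%, on 3.95% of their bases. Peaks covered 57.7% of coding exon bases on chromosome 4 (58.8% and 56.1%) and 3.02% on the arms (4.39% and 2.70%). Promoters were still the most covered class on both, with 80.9% on chromosome 4 and 19.4% on the arms. The 5′ UTRs were at 74.8% (49.5% and 69.3% in replicates 2 and 3) and 8.27%. Introns were at 52.6% and 8.73% and intergenic sequence at 39.8% and 8.03%. The GC content of coding exons also differed, with 41.6% on chromosome 4 and 53.6% on the arms, and its part in this contrast was not tested.

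**Figure D3:**
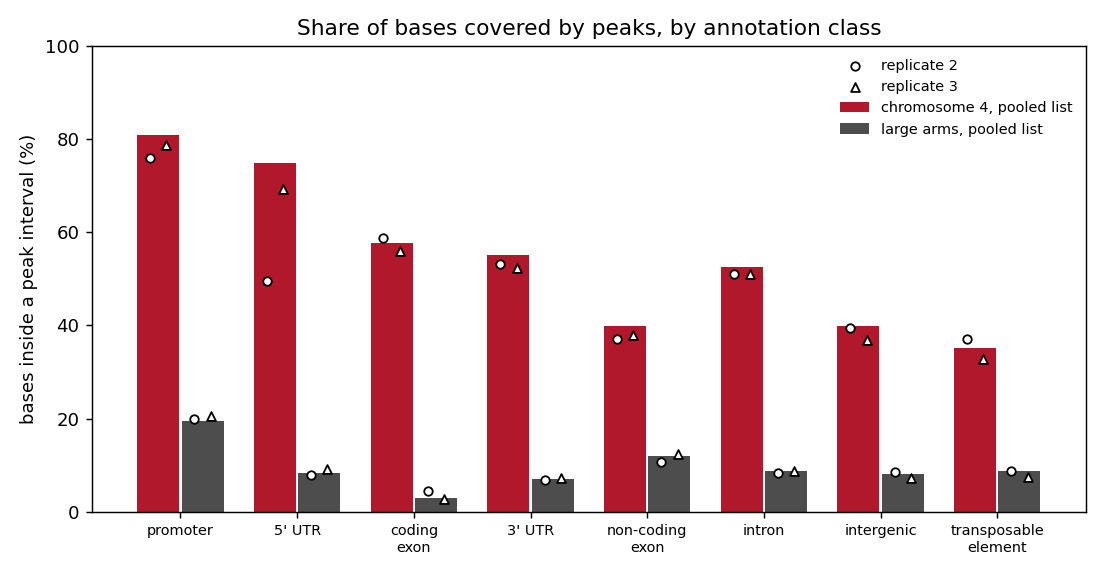
Share of bases inside a peak interval (%) by annotation class on chromosome 4 and the large arms; bars are the pooled list, circles replicate 2 and triangles replicate 3, and transposable elements overlap the other 7 classes. Every class is more covered on chromosome 4, from 80.9% against 19.4% in promoters to 57.7% against 3.02% in coding exons.

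Most of these exon peaks were outside the IDR set, 341 of 352, as were 1397 of all 1592 peaks of the chromosome and 1096 of 1113 exon peaks of the arms. Of the 1397 chromosome 4 peaks outside the IDR set, 341 (24.4%) were in coding exons, 645 (46.2%) in introns, 186 in intergenic sequence, 118 in 3′ UTRs and 88 at promoters. Over all 1592 peaks promoters held 195 (12.2%), where 30.7% of all pooled peaks were at promoters and 10.7% of the chromosome is promoter. In the IDR set 11 of 195 summits (5.64%) were in coding exons, against 17 of 4849 (0.351%) on the arms and 1.68% in repeat-rich bins. Coding exons make up 18.8% of the bases of chromosome 4, 13.7% of the arms and 3.95% of the repeat-rich bins. Strong peaks thus fell in coding exons less often than the share of bases in each of these sets. The higher share on chromosome 4 has to be read beside its higher share of coding exon bases. The weak exon peaks had a median of 1.08 times the median peak and 68.6% of them had a summit within 250 bp in both replicates. Those of the arms had 0.640 and 40.4%. The values were not particular to exons, since weak intron peaks of chromosome 4 had 1.05 and 70.4% and weak intergenic ones 1.05 and 66.7%. A −log10 q of at least 2 was reached by 31.1% of the weak exon peaks of chromosome 4 and 9.76% of those of the arms. Weak intron and intergenic peaks of chromosome 4 reached it in 32.9% and 32.3% of cases.

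Replicate agreement was close for strong peaks and poor for weak ones. The IDR list held the 5048 strongest peaks of the pooled list, which was derived from both replicates. The agreement of the strong set was therefore partly built in. The other peaks span a narrower range of signal, up to 3.79 times the median, and a narrow range by itself lowers a correlation. Of the 1592 peaks 1165 (73.2%) had a summit within 250 bp in each replicate's list, where 58.8% of all pooled peaks did. Because peaks are dense here, 31.3% of all bases of chromosome 4 lie that close to summits of both replicates, against 4.62% on the arms. In the IDR set 190 of 195 were found in both, and their summits in the 2 replicates were a median of 23.5 bp apart. Outside it 975 of 1397 (69.8%) were found in both, and the summits were 114 bp apart. The log2 multiples of the replicates had a Pearson r of 0.943 and a Spearman rho of 0.935 across the 190 IDR peaks, and of 0.338 and 0.268 across the other 975. The same weak class of the arms had 0.705 and 0.620. The pairs share the 2 libraries and are not independent, so these values describe the lists. The order of weak peaks by signal was thus little shared between the replicates on chromosome 4.

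**Figure D4:**
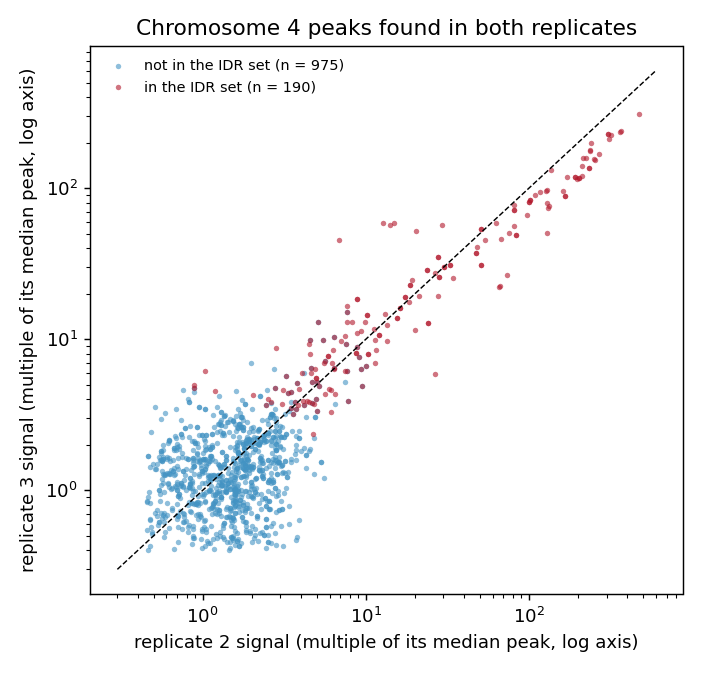
Signal of the 1165 chromosome 4 peaks found in both replicates, each axis a multiple of that replicate's median peak on a log scale, with the dashed line marking equal values. The 190 IDR peaks follow the line at low and middle signal and fall below it at the top, and the 975 others form a cloud with little slope.

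The strongest peaks had higher multiples in replicate 2. All 34 chromosome 4 peaks at or above 100 times the median were higher in replicate 2, with a median log2 ratio of replicate 3 to replicate 2 of -0.61 (from -0.90 to -0.04). On the arms 116 of 125 such peaks were, with a median of -0.78. Between 10 and 50 times the median the ratio was 0.00 on chromosome 4, with 31 of 65 higher in replicate 2, and -0.02 on the arms. In the repeat-rich bins it was -0.62. The difference between the replicates thus grew with signal on chromosome 4 and on the arms alike.

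A few IDR summits differed strongly between the replicates, all 5 of the most different being higher in replicate 3. A summit nearest to asRNA:CR45126, inside a transposable element, had 1.04 in replicate 2 and 6.14 in replicate 3. One at a promoter of Asator, a kinase gene, had 0.881 and 4.96. In the ci intron, where the ratio was 2.43 on the log2 scale, the matching summit of replicate 2 lay 249 bp away. At ATPsynbeta (2.71) and a second Asator promoter (2.20) the matching summits of replicate 3 lay 174 and 225 bp away, so a stronger neighbour was matched there.

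Strong peaks on chromosome 4 were broad. The median IDR peak interval was 3968 bp wide, against 462 bp on the arms and 1133 bp in repeat-rich bins, and 67.7% were wider than 2 kb (8.08% and 37.8%). Several summits can share an interval: 142 of the 195 IDR rows had the same coordinates as another row. After merging, 91 intervals remained with a median width of 1264 bp against 429 bp on the arms, and 39 of them (42.9%) exceeded 2 kb against 3.57%. The widest, chr4:126669-137305, was 10637 bp long with 5 summits and held the starts of anne and Ank, an ankyrin gene. Another, chr4:1025667-1033567, held 7 summits and the starts of PlexA, Mpv17, CG11076 and ATPsynbeta.

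Interval width, counted per summit, differed from the arms most at middle signal. Between 10 and 20 times the median peak, the median width was 4720.5 bp on chromosome 4 (n = 44), 501 bp on the arms (n = 910) and 1343.5 bp in repeat-rich bins (n = 126). At or above 100 times it was 5106, 4146 and 4503 bp. Of the 125 such summits on the arms, 79 were in the repeat-rich bins, so the values of arms and bins overlap. Median widths of very strong summits were thus similar in these sets, whereas summits of middle signal lay in wide intervals on chromosome 4. Each summit was given the width of its whole interval, which a stronger summit can share. An anne summit at 15.9 times, for example, lay in the 10637-bp interval of the summit at 457. Merged intervals whose strongest summit was between 10 and 20 times were narrower, from 470 bp (Actbeta) to 3867 bp (Cadps). Of the 88 IDR summits outside promoters, 38 shared an interval with a promoter summit.

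**Figure D5:**
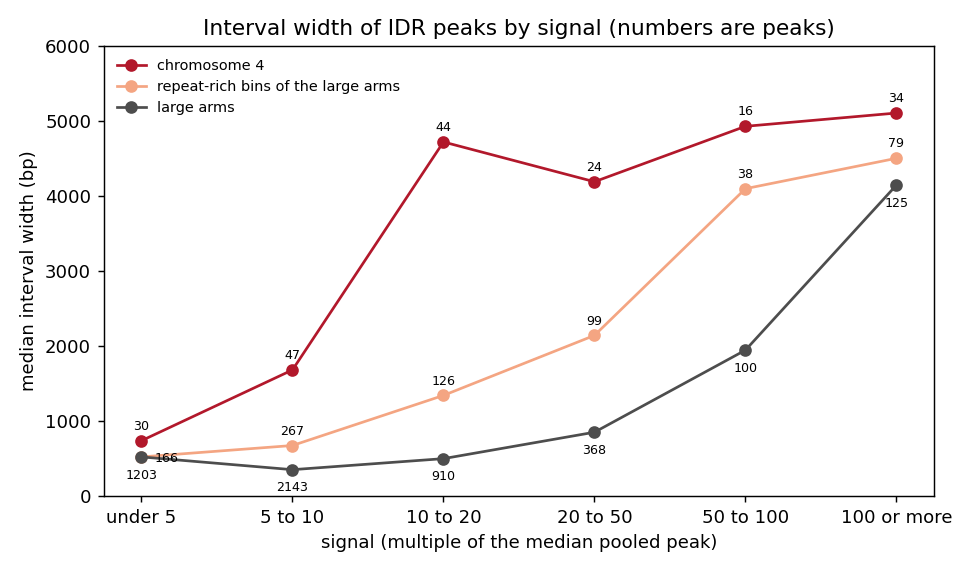
Median interval width (bp) of IDR peaks by signal (multiple of the median pooled peak) on chromosome 4, in repeat-rich bins of the large arms and on the large arms, which include those bins. Numbers are peaks, and each summit has the width of its whole interval, also where a stronger summit shares it. At 10 to 20 times the median, chromosome 4 stands at 4720.5 bp against 501 bp on the arms, and at 100 times or more at 5106 against 4146 bp.

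Some strong summits lay away from promoters. The intergenic summit near snoRNA:CD-24 was at 120 (110 in replicate 2 and 90.8 in replicate 3), in an interval that also holds the start of ci. The intergenic summit between myo and ey, at 696943, was at 109 (100 and 81.2). Its window, printed above, holds TATCGATA. The promoter summit of ey, at 0.972, lay inside the gene at 707756, 327 bp downstream of an internal TSS. Upstream of the start of ey at 697689, another IDR summit at 697182 had 13.8 in the pooled list. Its offset of -507 bp put it just outside the promoter window. The IDR interval from 693743 to 698003 held that start of ey, so the 0.972 does not describe it. An intron summit of Cadps, 3061 bp from its TSS, was at 73.2 (76.2 and 50.5). The summit in the non-coding exon of lncRNA:CR46488, whose window lies wholly in a transposable element, was at 49.4 (47.4 and 37.5). A Mitf intron summit was at 49.0, with 20.4 in replicate 2 and 51.8 in replicate 3.

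Long stretches had no IDR summit yet many weak peaks. From 497898 to 558059, a stretch of 60.2 kb with zfh2 and Tdg, there were 93 pooled summits and 62.4% of bases were covered. From 974809 to 1027253, 52.4 kb with fuss and toy, there were 79. From 721946 to 772753, which takes in most of bt, there were 66. The ends of the chromosome differed from these. The 84.2 kb from 1263899 to the end held 24 summits and was covered over 11.4%, and the 40.7 kb from 1821 to 42567 held 11 and was covered over 13.8%. The longest stretch outside all pooled intervals was the last 28708 bp, of which 92.4% is transposable element.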

How the data were processed

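Members and gene lists were chosen with earlier results of these data known. The authors deposited 4 peak lists on dm6: 1 for each of the 2 biological replicates, a pooled list and an IDR-thresholded list. Per the notes deposited with the files, the lists were called against a control alignment, which was not analysed here. Which aligner and caller made them is not given in the sources used here. The deposited signal value has no stated scale, so it was divided by the median of its own list. The deposited −log10 q value is capped at 4.23, which 25.7% of chromosome 4 peaks reach, so it did not rank peaks. The deposited summit offset gave the summit, which fell beyond the interval in 1 IDR peak.

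Positions were set against Ensembl release 115 gene models and the Release 6 genome. Transposable element entries were left out of TSSs and classes. Each summit fell in 1 class. Promoter took precedence, then the 5′ UTR, coding exons, the 3′ UTR, other exons, introns and intergenic sequence. IDR peaks were marked as rows identical in the pooled and IDR lists. Where the dependence on processing was examined, the main count used an IDR summit within 100 bp, which gave the same 195 peaks. A replicate match was the strongest summit within 250 bp. The large arms are 2L, 2R, 3L, 3R and X. Of 13 metabolism and trafficking symbols, Thd1 and Arf102F matched no gene. Genes were named by a rule: nearest TSS of the 20 strongest summits, the 5 strongest outside promoters, members of the 5 lists, genes without a summit, the 5 IDR summits with the largest replicate difference, and the 3 peaks on each side of the IDR threshold. The genes Mpv17 and CG11076 are named only as neighbours in 1 interval. Some genes under this rule are not reported or plotted here, though counts and medians include them. Calculations used Python 3.11.15, numpy 2.4.6, pandas 2.3.3 and matplotlib 3.10.9, and the matching, merging and nearest-TSS steps were tested on simulated peaks. With 1 group there was no test. Alternatives were other lists, windows, overlaps and single replicates.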

Additional observations from a re-analysis of the deposited data

How the results depend on the processing

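Of 32 alternatives, 31 of them planned, 22 left a density ratio within 1 SD of the replicates, or a count within a factor of 1.5. The density ratio of chromosome 4 to the large arms (5.52) was 3.95 both with the IDR set and with as many of the strongest pooled peaks, 4.35 with 1 summit per merged interval and 7.22 per annotated TSS. The number of peaks in the IDR set (195) was 303 when any overlap counted, and 195 with identical rows, an alternative chosen after seeing the data. Peaks found in both replicates (1165) numbered 721 with summits within 100 bp and 190 among IDR peaks only. Promoter summits (195) numbered 127 with a 200-bp window, 85 with 1 summit per merged interval and 107 in the IDR set. With 1 replicate alone the ratio was 5.41 to 5.57, matched peaks 1321 to 1424, promoter summits 197 to 201 and genes with a summit 77 to 79. No paired analysis was possible because there is 1 group and no test. Depth is unknown, the control was not analysed here, and whole embryos average over cell types. Peaks outside the IDR set agreed poorly in signal between the replicates, so their individual order is uncertain.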
